A study of Rattus norvegicus with 12 samples.

Results

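Genes of the cell cycle were followed in preadipocytes, the fibroblast-like precursors of fat cells, from the perirenal and the epididymal fat of male Brown Norway rats. The genes were chosen by name: 54 symbols of cyclins, replication enzymes and mitotic proteins were looked up among the probe sets whose annotation gave exactly 1 symbol, and where a gene had several, the brightest on average was taken. Such a probe set was found for 40 of the 54 genes, among 10412 genes that the array covers in this way, and all 40 passed the filter on low signals. The other 14 were Cdk2, Gmnn, Rrm2, Ccna2, Bub1, Kif11, Kif23, Nusap1, Prc1, Cenpf, Stmn1l, Smc2, Ncapg and Hmgb2, of which 2 (Rrm2 and Hmgb2) lay on probe sets with several symbols.

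The rats were barrier reared and aged 3 months (young, 3 rats) or 30 months (old, 3 rats), with no genetic change or treatment named. Both depots of each rat were digested with collagenase, and the plated cells were lifted, replated at a set density and grown until confluent before RNA was taken. This gave 4 groups of 3 arrays, 1 array for each depot and rat, so the replicates were separate animals and the arrays of 1 rat shared an animal. The cultures were adherent stromal cells that had been replated once, and a smaller share of dividing cells and less RNA per dividing cell cannot be told apart in them.

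A dividing cell passes from growth phase into DNA synthesis when cyclin D and cyclin E kinases release the E2F factors. E2F activity switches on the genes of origin licensing, the replication fork and deoxynucleotide synthesis. A later wave, driven by B-MYB and FOXM1 through the cell cycle homology region of promoters, switches on the cyclin B kinase, the Aurora and Polo kinases, the spindle checkpoint and the anaphase machinery. In cultures of precursor cells these genes are high while the cells multiply and low once crowded cells leave the cycle.

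The promoters of these genes were searched for letters that such factors are known to read. RefSeq promoter windows of the GRCr8 assembly, from 250 bases before to 50 bases after the annotated start, were found for 34 of the 40 genes and not for Ccnd1, Ccnd2, Mcm4, Aurkb, Ube2c and Racgap1. Both strands were searched, and a match is only a run of letters, not a bound site. The cell cycle homology region (TTTGAA or TTCGAA) occurred in 20 of the 34 windows (58.8%), against 19.7% of all 33469 windows and 13.3% of the 7401 windows of measured genes. The CCAAT box (CCAAT) occurred in 24 (70.6%), against 37.5% and 37.7%. Both together occurred in 17 (50%), against 7.95% and 5.55%. The 4 E2F-type octamers (TTTCCCGC, TTTGGCGC, TTTCGCGC and TTTGCCGC) gave a match in 7 windows (20.6%), against 2.14% and 3.89%, and these were the windows of Cdk1, Mcm2, Mcm3, Mcm5, Mcm6, Mcm7 and Tyms. None of the 3 motifs was found in 6 windows (17.6%), those of Aurka, Ccne1, Cdk4, Fen1, Mybl2 and Tk1, against 49.5% and 52.5%. Overlapping matches on opposite strands were counted separately, and a gene may have several windows in the RefSeq table.

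Windows of 4 genes are shown because they span the motif types: Birc5 with a CCAAT box and a homology region, Cdk1 with all 3 kinds, and Tyms and Mcm5 with E2F-type octamers. They are written 5′ to 3′ on the strand of the gene, with the matched letters of either strand in capitals.
Birc5, chr10:103571896-103572195, plus strand: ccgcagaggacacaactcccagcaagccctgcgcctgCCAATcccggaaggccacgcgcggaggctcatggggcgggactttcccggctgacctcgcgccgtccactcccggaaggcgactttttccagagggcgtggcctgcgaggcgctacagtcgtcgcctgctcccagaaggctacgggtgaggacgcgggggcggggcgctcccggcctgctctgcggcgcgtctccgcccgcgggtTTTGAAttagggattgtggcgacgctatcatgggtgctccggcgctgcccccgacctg
Cdk1, chr20:19265043-19265342, plus strand: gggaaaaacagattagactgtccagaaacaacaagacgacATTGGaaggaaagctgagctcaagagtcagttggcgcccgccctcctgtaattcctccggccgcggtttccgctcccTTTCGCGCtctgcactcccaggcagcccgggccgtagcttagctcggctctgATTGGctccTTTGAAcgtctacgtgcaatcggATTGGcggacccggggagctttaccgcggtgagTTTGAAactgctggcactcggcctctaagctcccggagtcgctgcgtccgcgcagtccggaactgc
Tyms, chr9:120776034-120776333, minus strand: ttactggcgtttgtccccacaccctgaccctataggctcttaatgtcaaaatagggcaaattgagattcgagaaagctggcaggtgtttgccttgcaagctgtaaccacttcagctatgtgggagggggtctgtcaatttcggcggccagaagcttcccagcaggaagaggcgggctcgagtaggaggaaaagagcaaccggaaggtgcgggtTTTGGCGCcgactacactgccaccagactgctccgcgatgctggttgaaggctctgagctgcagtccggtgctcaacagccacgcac
Mcm5, chr19:13488563-13488862, plus strand: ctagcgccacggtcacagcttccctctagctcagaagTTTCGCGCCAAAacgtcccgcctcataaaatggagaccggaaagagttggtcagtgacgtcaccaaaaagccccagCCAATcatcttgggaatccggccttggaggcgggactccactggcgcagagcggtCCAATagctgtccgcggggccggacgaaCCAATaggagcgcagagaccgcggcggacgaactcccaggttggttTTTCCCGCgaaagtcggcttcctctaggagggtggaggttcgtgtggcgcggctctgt
In the Birc5 window the homology region began 8 bases before the start, and in that of Cdk1 a pair of homology regions began 72 and 16 bases before it. The Tyms octamer began 37 bases before the start, and the Mcm5 window held 3 octamer matches, 2 of which overlap on opposite strands.

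Some array controls separated the depots and have to be kept beside every depot value. The beta-actin 3′/5′ signal ratio, which rises when labelled RNA is incomplete, ran from 0.902 to 1.11 over the 6 perirenal cultures and from 5.25 to 55.0 over the 6 epididymal cultures. The added bacterial control transcript dap had signals of 0.4 to 2.3 and 492.6 to 765.7, and the median signal was 194.3 to 201.6 and 152.9 to 175.9. Within groups the log2 signals of 2 arrays correlated at 0.926 to 0.962 across probe sets, and 3 arrays a group limit the precision of every value. Fibroblast markers were bright in all groups, with summed signals of 89708 to 108881 (perirenal) and 146796 to 170524 (epididymal) over the 12 markers on the array, of which 10 passed the filter. Dlk1, a preadipocyte marker, and Dpp4 did not.

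The mean log2 signal over the 40 genes was 9.53, 9.79 and 9.45 on the perirenal arrays of young rats 1, 2 and 3 (9.59 ± 0.18, SD, n = 3). It was 9.53, 9.86 and 9.73 on those of old rats 1, 2 and 3 (9.71 ± 0.17). Epididymal arrays gave 8.39, 9.52 and 9.42 for the young rats (9.11 ± 0.63) and 8.99, 9.38 and 9.44 for the old rats (9.27 ± 0.25). The 6 perirenal arrays thus overlapped the epididymal ones, and a single array, the epididymal array of young rat 1, lay far below the rest. The mean over all 11106 tested probe sets stayed between 8.48 and 8.73 on the 12 arrays. Summarised by group, that mean was 8.72 for young and 8.72 for old perirenal cells, and 8.55 and 8.52 for young and old epididymal cells.

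**Figure D1:**
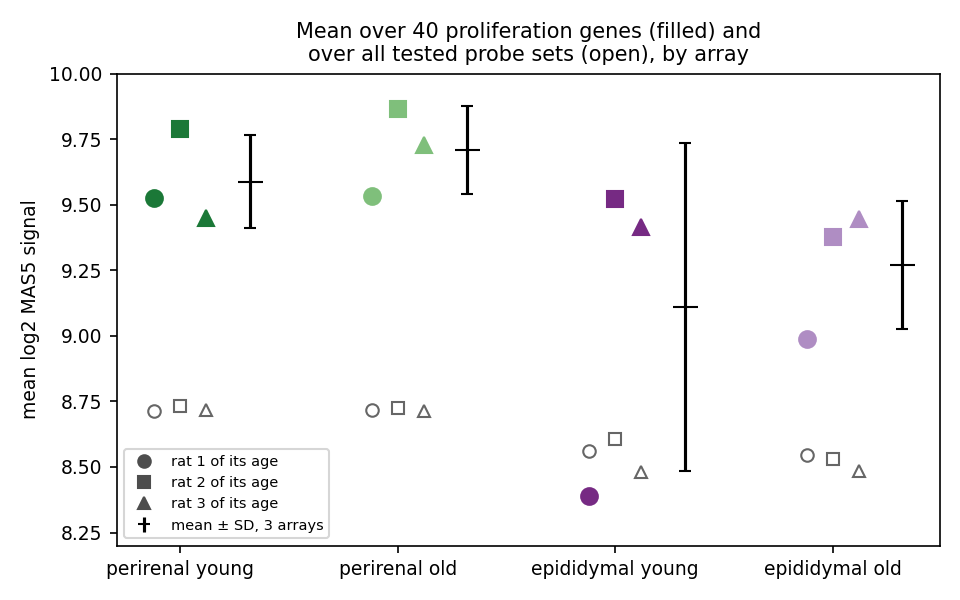
Mean log2 MAS5 signal over the 40 proliferation genes (filled symbols) and over all 11106 tested probe sets (open symbols) on each of the 12 arrays, with the mean ± SD of 3 arrays as bars; symbol shape marks the rat number within its age. The epididymal array of young rat 1 sits at 8.39, while the other 11 arrays lie between 8.99 and 9.86.

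On that array the genes were low almost without exception. It held the lowest of all 12 signals for 35 of the 40 genes (87.5%), against 10.6% of all tested probe sets, and the exceptions were Ccnd2, Rrm1, Smc4, Ncapd2 and Mki67. Compared with the mean of the other 2 young epididymal arrays, 39 of 40 genes were lower, with a median of -1.02 on the log2 scale, and 36 were lower by more than 0.5. Over all tested probe sets the median was 0.02, 47.9% were lower and 12.1% were lower by more than 0.5.

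Genes of several roles were among the lowest on it. Mcm5, a subunit of the helicase that unwinds origins, had signals of 106, 621 and 623 in young epididymal cells 1, 2 and 3, which puts the first array 5.87-fold below the mean of the others (-2.55). In old epididymal cells its signals were 341, 445 and 678, and in perirenal cells 561, 628 and 492 (young) and 593, 717 and 790.3 (old). Fen1, the nuclease that trims Okazaki fragments, stood at -1.89, and Mcm6, Mcm7 and Mcm3 at -1.71, -1.69 and -1.66. Lmnb1, a lamin of the nuclear envelope, stood at -1.88, Ccne1 (cyclin E1) at -1.55, Tacc3 (a spindle protein) at -1.54, Mybl2 (B-MYB) at -1.47 and Tk1 (thymidine kinase) at -1.38. Other replication genes fell short by less than the median gene, with Pcna at -0.96, Mcm2 at -0.88, Mcm4 at -0.86 and Tyms at -0.64. The smallest shortfalls were those of Cdk4, the kinase partner of cyclin D (-0.37), and Smc4, a condensin subunit (-0.24). Ccnd2 (cyclin D2) went the other way, at 0.88.

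Most replication and mitosis genes outside the named 54 were also low there. Of 33 tested other genes of replication, 24 (72.7%) had their lowest signal of 12 on it, and of 30 other mitosis genes 18 (60%). Among 10 E2F, MYC and DREAM factors it was 3 (30%), with a mean deviation of -0.15 from the group mean. Among 21 genes of cell cycle inhibition and arrest it was 1 (4.76%), and among 8 macrophage and leukocyte markers 1. It was 0 among 10 fibroblast, 9 smooth muscle, 4 mesothelial and epithelial and 2 endothelial markers. The 4 mesothelial and epithelial markers nevertheless lay below their group mean, with a mean deviation of -0.66 against -0.72 for the 40 genes. Their mean log2 signal on this array, 8.62, lay within the 8.51 to 9.24 of the old epididymal arrays. The deviation came from Krt7 and Krt8. In young epididymal cells 1, 2 and 3, Msln was highest on the first array (870.2, 800.9 and 665.3) and Wt1 was nearly level (967.5, 1096.2 and 1118.8). Krt8, a keratin, had 79.6, 543 and 556 in young epididymal cells 1, 2 and 3. It had 44.9 to 121.9 in old epididymal and 65.8 to 117.1 in perirenal cells. Cdh1, E-cadherin, which did not pass the filter, had 3.7, 100.2 and 75.7, and 2.4 to 7.1 in the other groups. For these 2 genes the other 2 young epididymal arrays were thus the high ones, and the first was level with the other groups. Krt7 had 360.3, 1195 and 594 (494.8 to 1075.6 in old epididymal cells). Smooth muscle markers had their highest mean log2 signal of the 12 arrays on it (12.01, a deviation of 0.29), and the mean deviations of the fibroblast, macrophage and endothelial markers were 0.08, -0.01 and 0.06. The part of these cells in the low signals was not tested. The beta-actin 3′/5′ ratio of this array, 10.3, lay within the range of the epididymal arrays (7.0, 55.0 and 13.9 in old rats 1, 2 and 3, and 5.25 and 38.2 in the other young rats). No cause was tested, the array was kept in all comparisons, and results that rest on it are given with and without it. The epididymal array of old rat 1 was also low, with 38 of 40 genes below their group mean and a mean deviation of -0.28.

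**Figure D2:**
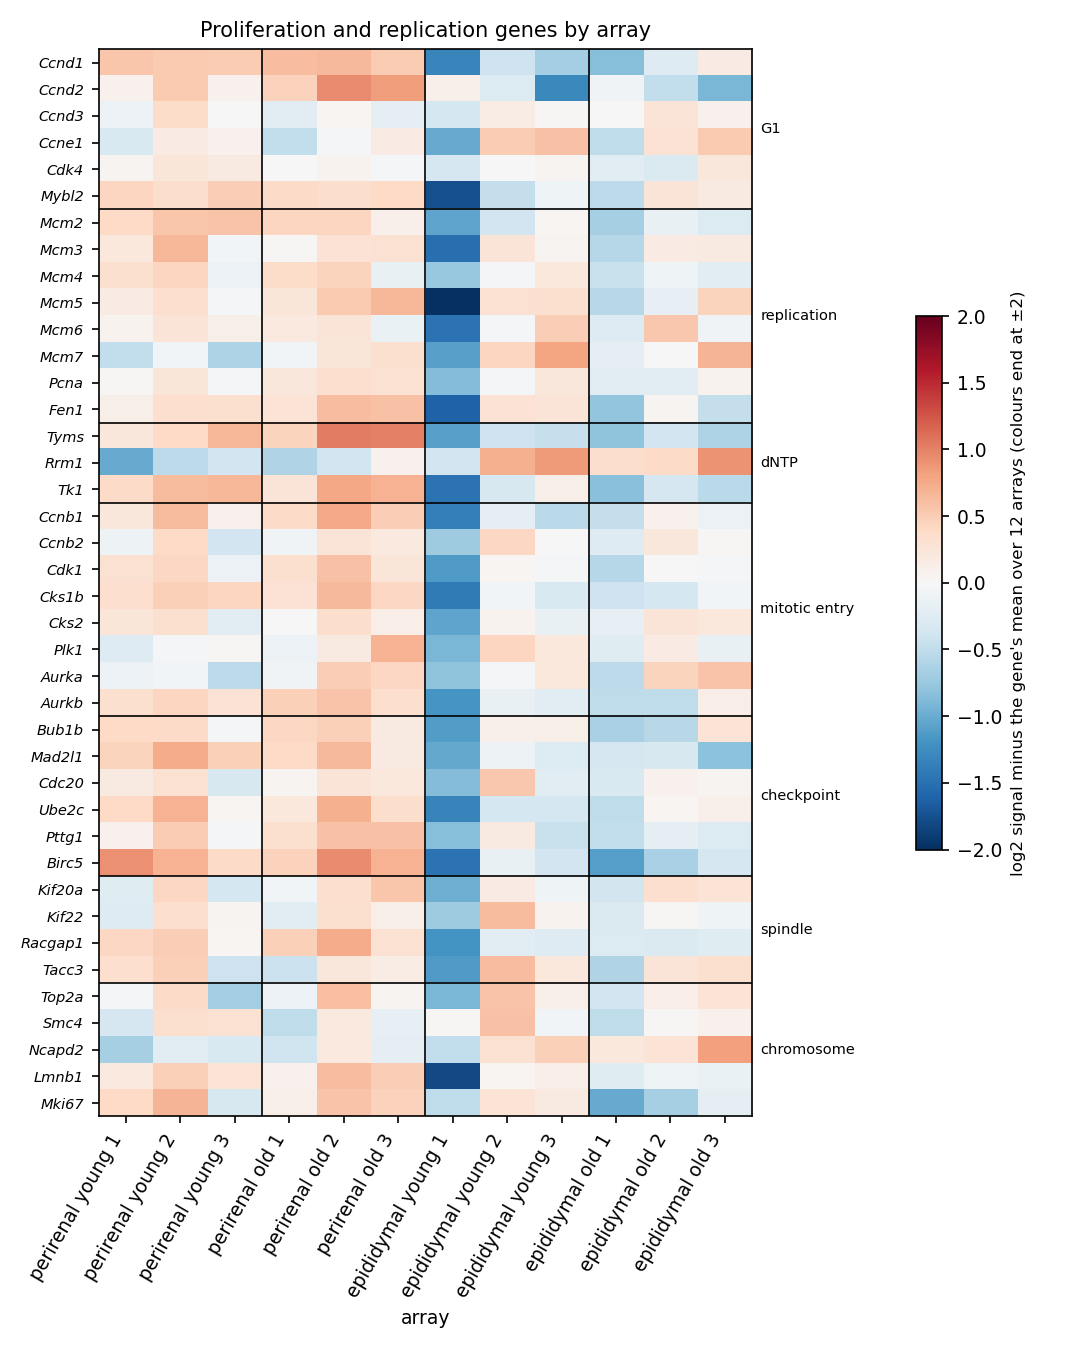
Log2 signal of each of the 40 genes (rows, by role) on each of the 12 arrays (columns, by group and rat), minus the gene's mean over the 12 arrays; red is above and blue below that mean, and colours end at ±2. The column of the epididymal array of young rat 1 is blue in nearly all rows, and Rrm1 and Ncapd2 are bluer in the perirenal columns.

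Between depots, averaged over ages, 19 of the 40 genes were higher in perirenal cells and 2 were lower with an adjusted p under 0.05 (limma, Benjamini-Hochberg adjustment over 11106 probe sets, n = 6 arrays a depot). That is 52.5% of the genes against 51.7% of all tested probe sets, so a call as such was no more frequent here than on the whole array. The direction was less even: over all tested probe sets 30.2% were higher and 21.4% lower. In sign, 34 of 40 genes lay above 0 (55.5% of all tested probe sets), with a median log2 difference of 0.53 against 0.08. Without the epididymal array of young rat 1 the median was 0.25 and 27 lay above 0, while 18 genes were called higher and 3 lower, 20 of them the same as before. The groups did not overlap, all 6 perirenal signals lying above all 6 epididymal ones, for 10 genes (17% of all tested probe sets), and for 0 genes the other way (10.8%).

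The depot difference varied from rat to rat. Arrays of both depots were paired by the number in their titles, taken to mark the rat. Taking the perirenal minus the epididymal array of each pair, the mean over the 40 genes was 1.14, 0.27 and 0.03 in young rats 1, 2 and 3. It was 0.54, 0.49 and 0.28 in old rats 1, 2 and 3. Perirenal signals were higher for 36, 28 and 18 genes in the young rats and for 36, 33 and 27 in the old rats. Young rat 3 thus had no net difference, and the mean over all tested probe sets was 0.24 there and 0.13 to 0.23 in the other rats.

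**Figure D3:**
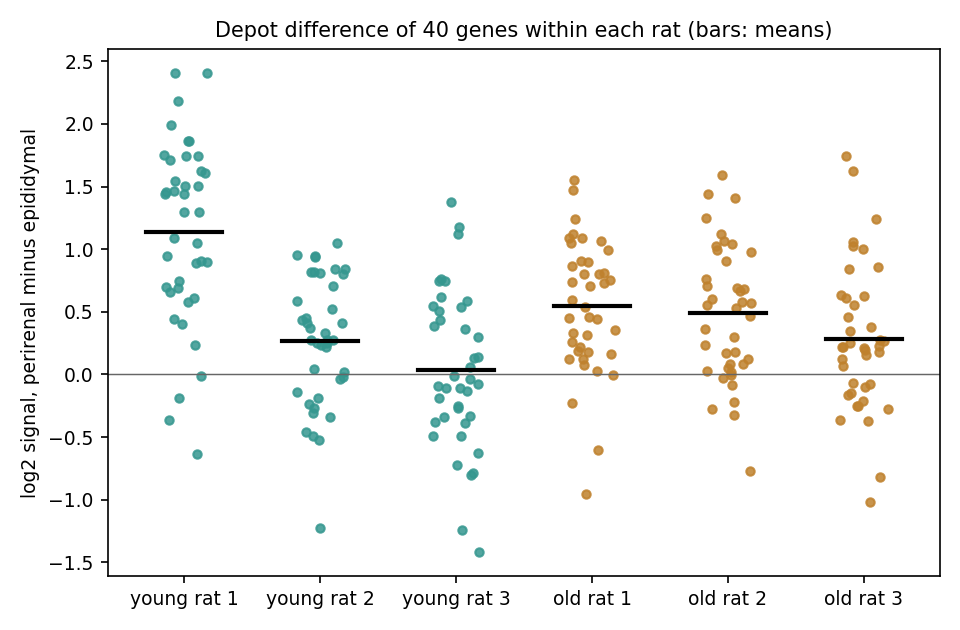
Log2 signal on the perirenal minus the epididymal array of the same rat for each of the 40 genes (points), with their mean (bars), for the 6 rats. The mean is 1.14 in young rat 1, 0.27 in young rat 2 and 0.03 in young rat 3, and the old rats lie between 0.28 and 0.54.

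Enzymes of deoxynucleotide synthesis, which supply the building blocks of DNA, had the largest median depot difference of the 7 role groups, 1.14. With 3 measured genes, that median is the value of Tk1 alone. All 3 passed, 2 higher and 1 lower, where 30.2% of all tested probe sets were higher and 21.4% lower. Tyms, thymidylate synthase, had perirenal signals of 210.3, 239 and 284 in young and 245, 367 and 363 in old rats. Its epididymal signals were 85.4, 135 and 131 and 103, 138 and 118. The depots did not overlap, and perirenal cells were 2.38-fold higher (1.25 ± 0.17 SE, adjusted p = 6.06e-05, higher in 6 of 6 rats). For this and every other gene without overlap between depots, the 6 of 6 rats follow from the separation and add nothing to it. Tk1, the salvage thymidine kinase, had perirenal signals of 1109, 1312 and 1349 (young) and 1016, 1458 and 1374 (old) and epididymal signals of 305, 677 and 922 and 479, 669.7 and 582. These groups were also separate (1.14 ± 0.22, adjusted p = 0.000873), but the other Tk1 probe set differed by 0.49 with an adjusted p of 0.0696.

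Rrm1, the large subunit of ribonucleotide reductase, moved against its group. Its perirenal signals were 631, 888 and 973 in young and 836, 977 and 1346 in old rats. Epididymal signals were 977, 2078 and 2295 in young and 1620.0, 1666 and 2369 in old rats. The ranges overlapped through the old perirenal array of rat 3 and the epididymal array of young rat 1, yet perirenal cells were lower in 6 of 6 rats (-0.94 ± 0.21, adjusted p = 0.00237). Without the epididymal array of young rat 1 the Rrm1 difference was -1.13.

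Among the G1 cyclins and kinases, which carry cells towards DNA synthesis, 3 of 6 genes rose in perirenal cells and none fell (median 0.49), where 30.2% of all tested probe sets were higher and 21.4% lower. Ccnd1, cyclin D1, had perirenal signals of 1889.7, 1857 and 1832 (young) and 1987, 2021 and 1832 (old). In epididymal cells they were 518, 968 and 809 and 716, 1078 and 1442. The perirenal signals lay close together and all above the epididymal ones, a 2.17-fold difference (1.12 ± 0.17, adjusted p = 0.000159, 6 of 6 rats), and the other 2 Ccnd1 probe sets differed by 1.40 and 1.24 and passed. Ccnd2, cyclin D2, was also higher (0.98 ± 0.23, adjusted p = 0.00286, 5 of 6 rats), as was Mybl2 (0.80 ± 0.24, 0.0123, 6 of 6 rats). The differences of Cdk4 (0.18), Ccnd3 (-0.05) and Ccne1 (-0.13) did not pass.

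Of 8 genes of origin licensing and the replication fork, 2 rose and none fell (median 0.46), a share no higher than the 30.2% of all tested probe sets that were higher. Mcm2, a helicase subunit, had perirenal signals of 822, 919 and 932 (young) and 839, 845 and 674 (old). Its epididymal signals were 302, 479 and 642 and 395, 565 and 517. All perirenal signals were above all epididymal ones (0.83 ± 0.17, adjusted p = 0.00112, 6 of 6 rats), although the gap between the nearest arrays, 674 and 642, was narrow. Fen1 was the other gene that passed (0.76 ± 0.28, adjusted p = 0.0367). The other helicase subunits did not follow Mcm2 as calls: Mcm4 (0.44, adjusted p = 0.051), Mcm3 (0.48), Mcm5 (0.63), Mcm6 (0.26) and Mcm7 (-0.22) missed the threshold. Leaving out the epididymal array of young rat 1 brought Mcm5 to 0.21, Mcm6 to -0.03 and Mcm7 to -0.50, the last of which then passed as lower (adjusted p = 0.0258).

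Pcna, the sliding clamp of the DNA polymerases, had perirenal signals of 2414, 2799 and 2320.3 (young) and 2778, 2981 and 2918 (old). Epididymal signals were 1296, 2308 and 2763 and 2021, 2035 and 2487. The ranges overlapped and the difference did not pass (0.36 ± 0.15, adjusted p = 0.0637, higher in 5 of 6 rats). With the rat as a fixed block its adjusted p was 0.0444, and after quantile normalization 0.0271.

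Mitotic entry genes, the cyclin B kinase and its activators, rose in 4 of 8 and fell in none (median 0.43, against 30.2% of probe sets higher). Ccnb1, cyclin B1, had perirenal signals of 1289, 1701 and 1165 (young) and 1429, 1853 and 1542 (old). Epididymal signals were 423, 971 and 758 and 784, 1169 and 1012. Only the highest epididymal array, that of old rat 2, reached the lowest perirenal one (0.86 ± 0.19, adjusted p = 0.00187, 6 of 6 rats), and the other Ccnb1 probe set differed by 0.76 (adjusted p = 0.0261). Cdk1, the mitotic kinase, had perirenal signals of 1973, 2129.6 and 1469 and 2001, 2415 and 1887, against 727, 1644 and 1579 and 1075, 1594 and 1557 in epididymal cells. It passed with overlapping ranges (0.58 ± 0.19, adjusted p = 0.0237, 5 of 6 rats).

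Cks1b, a small subunit of cyclin kinases, differed by 0.86 (adjusted p = 0.00197), but by 0.36 (0.0662) in its other probe set. Aurkb, the kinase of the chromosomal passenger complex, differed by 0.81 (adjusted p = 0.00204), without overlap between depots. The remaining genes of mitotic entry did not pass: Cks2 (0.27), Plk1 (the Polo kinase, 0.17), Ccnb2 (cyclin B2, 0.10) and Aurka (the spindle pole Aurora kinase, 0.05 ± 0.22). The Aurka difference was -0.08 after quantile normalization, and it was the single gene of the 40 whose sign changed with that scaling.

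The spindle checkpoint and anaphase genes were called most often among role groups with over 3 measured genes: 5 of 6 rose in perirenal cells and none fell (median 0.75, against 30.2% of probe sets higher). Birc5, survivin, another part of the passenger complex, had perirenal signals of 685, 587 and 469.7 (young) and 495, 698 and 585 (old). In epididymal cells they were 129, 327 and 277 and 168, 231 and 288. No array overlapped, and the 2.57-fold difference was the largest of the 40 genes (1.36 ± 0.22, adjusted p = 0.000218, 6 of 6 rats). Mad2l1, the checkpoint protein MAD2, had perirenal signals of 215, 263 and 218 and 208, 248 and 178, against 77.6, 147 and 130.0 and 125, 126 and 88.8 in epididymal cells. Its ranges were separate too (0.96 ± 0.18, adjusted p = 0.000802).

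Pttg1, securin, differed by 0.69 (adjusted p = 0.0029) and Ube2c, the ubiquitin enzyme of the anaphase complex, by 0.81 (0.00328), each higher in 6 of 6 rats. Bub1b, the checkpoint kinase BUBR1, differed by 0.61 (adjusted p = 0.036, 4 of 6 rats), but by 0.40 (0.068) without the epididymal array of young rat 1 and 0.47 (0.0857) after quantile normalization. Cdc20, the activator of the anaphase complex, did not pass (0.24, adjusted p = 0.331) in the probe set used. Its 4 other probe sets gave 0.41, 0.17, 0.68 and 1.76, and only the last passed (adjusted p = 3.35e-05).

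Of 4 genes of spindle motors and cytokinesis, 1 rose and none fell (median 0.17), again no higher a share than the 30.2% of probe sets. Racgap1, which positions the cleavage furrow, had perirenal signals of 1216, 1279 and 934 (young) and 1268, 1516 and 1126 (old), and epididymal signals of 395, 785 and 758 and 750.1, 743 and 768. The depots did not overlap (0.83 ± 0.16, adjusted p = 0.00105, 6 of 6 rats). Kif20a (0.22) and Kif22 (0.12), mitotic kinesins, and Tacc3 (0.11) did not pass.

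Of 5 genes of chromosome structure and the nuclear lamina, 2 rose and 1 fell (median 0.07), beside 30.2% and 21.4% of probe sets. Mki67, the Ki-67 antigen of cycling cells, had perirenal signals of 919, 1124 and 564 (young) and 759, 1043 and 962 (old). In epididymal cells they were 492, 847 and 792 and 350.1, 439.9 and 619. The old rats were separated by depot and the young rats were not, and the averaged difference was 0.64 ± 0.20 (adjusted p = 0.017, 5 of 6 rats). Lmnb1 rose by 0.70 (adjusted p = 0.0389), and by 1.36 in another probe set (0.000165).

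Top2a, the topoisomerase that untangles replicated DNA, had perirenal signals of 723, 962 and 458 and 678, 1121 and 769.7. Its epididymal signals were 389.5, 1095 and 798 and 567, 809 and 891, so the depots lay over each other (0.07 ± 0.25, adjusted p = 0.831). In the probe set used, the Top2a difference was -0.14 without the epididymal array of young rat 1. The other Top2a probe set differed by 0.39 with all arrays and did not pass either (adjusted p = 0.148). Ncapd2, a condensin subunit, was lower in perirenal cells: its signals there were 149, 205 and 191 (young) and 179.8, 269 and 206 (old), against 169, 293 and 328 and 273, 285 and 416. It was lower in 6 of 6 rats, with overlap only through the epididymal array of young rat 1 (-0.53 ± 0.19, adjusted p = 0.0308). Smc4, of the same complex, had signals near the filter level, differed by -0.06 ± 0.24 and did not pass.

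**Figure D4:**
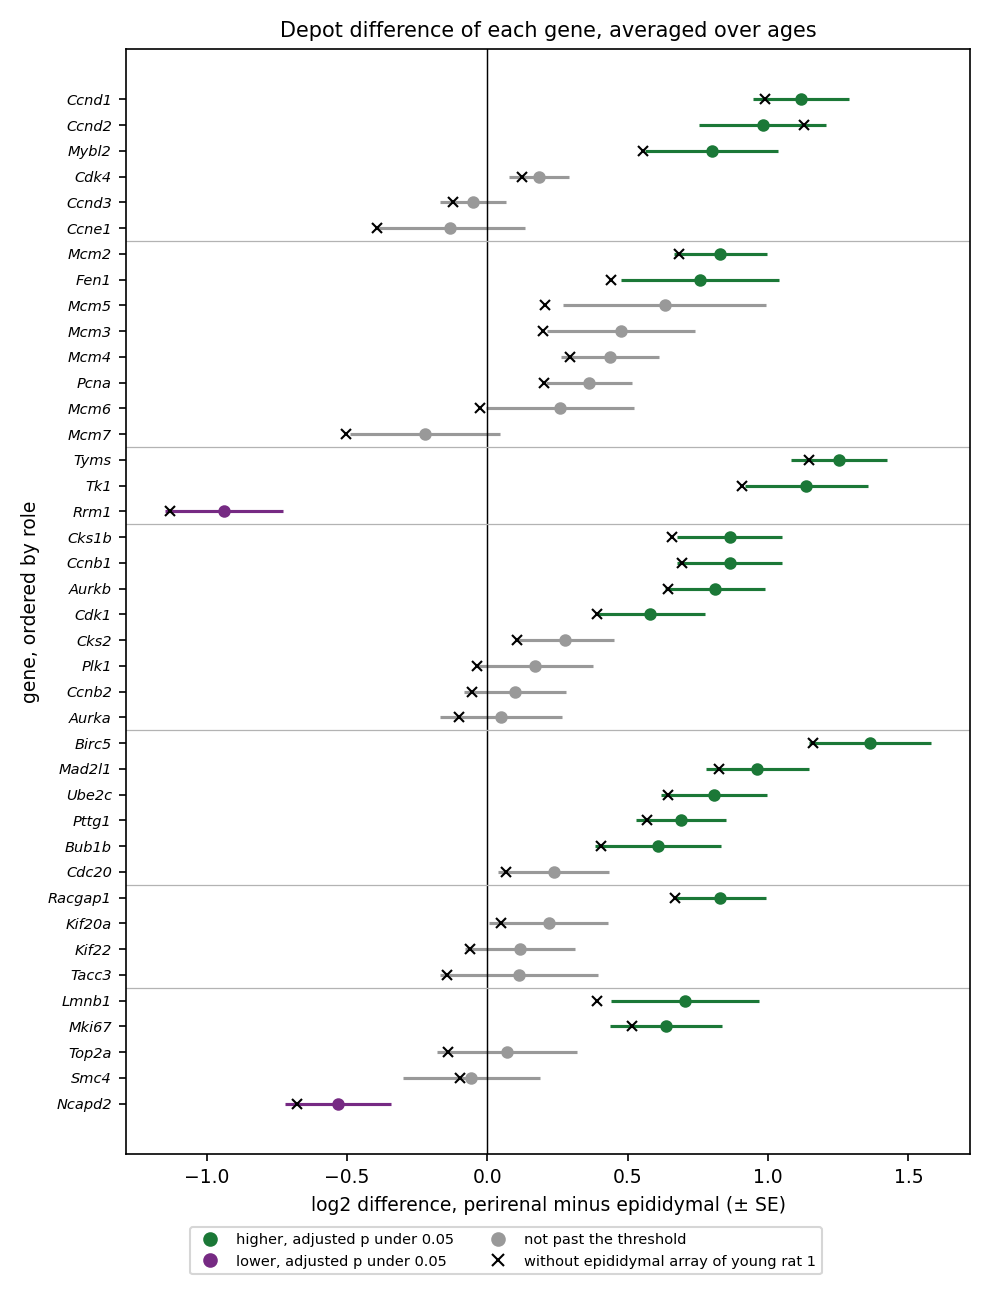
Log2 difference between depots (perirenal minus epididymal, averaged over ages, ± SE from limma, n = 6 arrays a depot) for the 40 genes, ordered by role; green genes were called higher, purple lower and grey did not pass, and crosses give the value without the epididymal array of young rat 1. Most crosses lie to the left of their points, and those of Tyms, Ccnd1 and Birc5 are at 1.15, 0.99 and 1.16.

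Leaving out 1 rat at a time kept the calls of Tyms, Ccnd1, Birc5, Mad2l1, Tk1, Racgap1, Mcm2, Ccnb1 and Rrm1. Ncapd2 lost its call without young rat 2 or 3 or old rat 1 or 3, Mki67 without young rat 1 or old rat 2, and Cdk1 without young rat 1 or old rat 1 or 2. With the beta-actin ratio as a covariate 1 gene passed, Mcm2 (1.55), against 274 of all probe sets. The ratio nearly coincides with depot, so that fit has little precision for depot. Neither this ratio nor the dap control overlapped between depots. A difference in RNA completeness or in array preparation therefore cannot be told apart from one of depot, and its part in these depot values was not tested.

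Promoter letters and depot calls were set side by side for the 34 genes with a window. Of 14 genes called higher, 9 had a homology region, 7 a CCAAT box and 3 an E2F-type octamer. Both genes called lower, Rrm1 and Ncapd2, had a homology region and a CCAAT box and no octamer. Of 18 genes not called, the numbers were 9, 15 and 4.

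The same comparison was made within each age, with n = 3 arrays a depot. In young rats 12 genes were higher and 1 lower in perirenal cells (32.5% of the genes, against 34.9% of all tested probe sets, 20% higher and 14.9% lower), and in old rats 11 and 1 (30%, against 31.8%, 19.2% higher and 12.5% lower). Called at both ages were Ccnd1, Mcm2, Tyms, Tk1, Aurkb, Mad2l1, Birc5 and Racgap1 as higher and Rrm1 as lower. In young rats these were joined by Mybl2 (1.20), Ccnb1 (1.01), Cks1b (1.01) and Ube2c (1.06). In old rats they were joined by Ccnd2 (1.24), Pttg1 (0.81) and Mki67 (1.00). Tyms differed by 1.08 in young and 1.43 in old rats, and Birc5 by 1.34 and 1.39.

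The count in old rats was unsteady: it was 4 without old rat 1, 1 without old rat 2, 5 without old rat 3, and 19 without the epididymal array of young rat 1, which enters through the shared estimate of spread. Whether the depot difference itself changed with age was tested as an interaction, and it passed for 0 of 40 genes and for 0 of 11106 probe sets with limma. At an unadjusted p under 0.05 it was 0 genes and 612 probe sets (5.51%).

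The interaction with the smallest p was that of Mki67. Its age difference was 0.13 in perirenal and -0.60 in epididymal cells, a difference of 0.73 ± 0.40 (adjusted p = 0.906). Mybl2 came next, with -0.05 and 0.74 (-0.79 ± 0.47, adjusted p = 0.906). The median interaction over the 40 genes was -0.03, with 19 above 0, where all tested probe sets had a median of 0.01 and 51.4% above 0. Without the epididymal array of young rat 1 the median of the genes was 0.33, with 34 above 0.

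With age, 0 of the 40 genes passed in perirenal cells, where 0 of 11106 probe sets passed with limma. At an unadjusted p under 0.05 it was 0 genes and 486 probe sets (4.38%). Of the 40 genes 30 lay above 0 in old against young rats, where 47.8% of all tested probe sets did. The median was 0.11 against -0.01 for all tested probe sets, and the standard errors ran from 0.15 to 0.51. The groups did not overlap for 1 gene, Mcm7 (13.6% of all tested probe sets, 6.1% higher and 7.5% lower in old rats), with 554, 750.8 and 509 in young and 751.3, 929 and 974 in old rats, where the nearest arrays were almost level (0.56 ± 0.38, adjusted p = 0.999). In epididymal cells Mcm7 was 370.3, 1055 and 1358 and 689, 789 and 1259.

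The smallest p belonged to Tyms, whose perirenal signals given above overlapped between ages (0.40 ± 0.24). Aurka had 304, 315 and 229 in young and 311, 461 and 438 in old perirenal cells, with 2 old arrays above all young ones (0.51 ± 0.31). Ccnd2 had 217, 293 and 217 and 281, 390.3 and 362 (0.51 ± 0.32). The old signals of Ccnd2 reached higher, but the lowest of them lay within the young range.

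On the other side, Ccnd3 (cyclin D3) had 1583, 2218 and 1705 in young and 1478, 1771 and 1502 in old perirenal cells (-0.20 ± 0.17). Cdk4 had 3153, 3579.8 and 3433 and 3031, 3187 and 2986 (-0.14 ± 0.15), and Smc4 59.3, 93.3 and 92.4 and 52.3, 85.6 and 66.4 (-0.26 ± 0.34). Mcm2, with signals given above, differed by -0.19 ± 0.23. Each of these overlapped between ages, and every adjusted p in perirenal cells was 0.999. Among the marker genes of the cycle, Mki67 differed by 0.13 ± 0.28, Pcna by 0.21 ± 0.22, Top2a by 0.29 ± 0.35, Cdk1 by 0.19 ± 0.28 and Ccnd1 by 0.06 ± 0.24, and without young rat 3 the Mki67 value was -0.15.

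In epididymal cells 0 of the 40 genes passed with age, against 8 of all tested probe sets (0.072%, 0.018% higher and 0.054% lower), with limma. At an unadjusted p under 0.05 it was 1 gene and 927 probe sets (8.35%). The groups did not overlap for 0 genes, against 4.69% of all tested probe sets higher and 5.93% lower. With all 6 arrays 30 genes lay above 0 (47.9% of all tested probe sets) and the median was 0.11, against -0.01 for all tested probe sets. Without the epididymal array of young rat 1 (3 old against 2 young arrays) 30 genes lay below 0, the median was -0.21, and 3 genes had an unadjusted p under 0.05, the smallest adjusted p being 0.281. Over all tested probe sets the median was -0.02 and 53.0% lay below 0 in that fit. The sign of the age difference of these genes in epididymal cells therefore rested on 1 array.

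Mybl2 was the gene with an unadjusted p under 0.05, with 88.2, 214 and 279 in young and 207, 357 and 335 in old epididymal cells (0.74 ± 0.33, adjusted p = 0.579). It was 0.25 without that array. Ube2c had 589, 1168 and 1174 and 1046, 1529 and 1604 (0.56 ± 0.27), and 0.23 without it. In these pairs the old arrays were high in 2 rats and the first array of each age was the lowest. Ccnd1 and Ccnb1, whose signals are given above, differed by 0.48 ± 0.24 and 0.53 ± 0.26, and by 0.23 and 0.19 without it.

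Mki67 was the gene with the smallest p among those lower in old epididymal cells. Its young signals were 492, 847 and 792 and its old signals 350.1, 439.9 and 619, which overlap (-0.60 ± 0.28, adjusted p = 0.598), and without the young rat 1 array the difference was -0.84 (adjusted p = 0.304). Smc4 had 76.1, 112 and 71.9 and 52.4, 75.7 and 79.1 (-0.32 ± 0.34), Kif22 527, 1341 and 907 and 703, 872 and 815 (-0.12 ± 0.28), and Mcm4 292, 487 and 575 and 365, 467 and 428 (-0.06 ± 0.25). None of these separated the ages.

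Pcna (0.10), Mcm2 (0.11), Top2a (0.09), Cdk1 (0.17) and Tyms (0.05) had age differences near 0 in epididymal cells. Without the epididymal array of young rat 1 they were -0.22, -0.19, -0.33, -0.22 and -0.16. Fen1 had the smallest adjusted p in that fit, with -0.68 (adjusted p = 0.281), against -0.05 with all arrays.

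**Figure D5:**
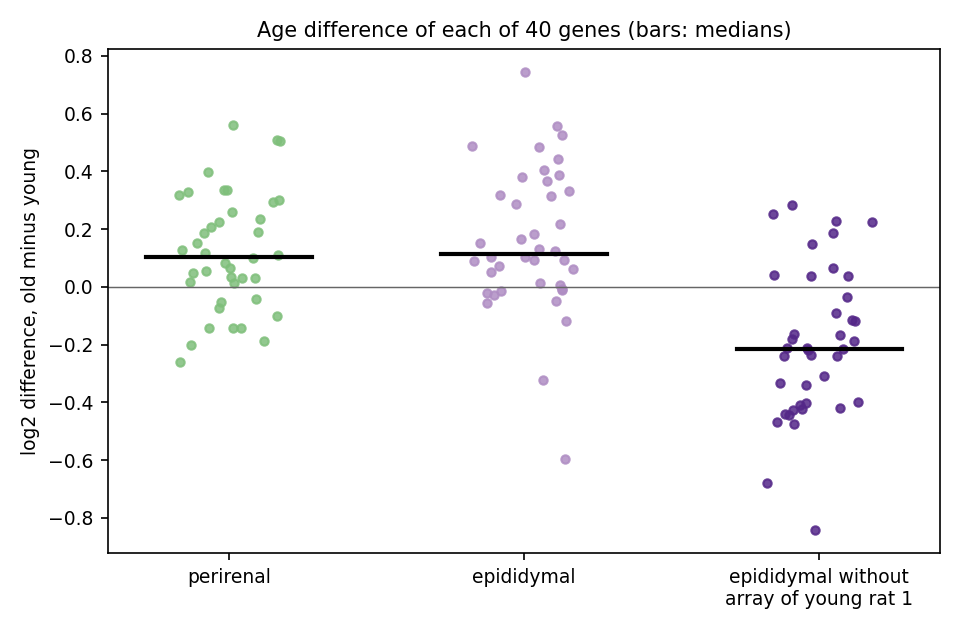
Log2 difference between old and young rats for each of the 40 genes (points) with the median (bars), in perirenal cells, in epididymal cells with all 6 arrays, and in epididymal cells without the array of young rat 1. The medians are 0.11, 0.11 and -0.21, and none of the genes passed in any of these fits.

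Averaged over depots, with 1 mean per rat and 3 rats against 3, 0 of the 40 genes passed with limma, against 2 of all tested probe sets (0.018%). At an unadjusted p under 0.05 it was 0 genes and 647 probe sets (5.83%). The rat means did not overlap for 0 genes (5.11% of all tested probe sets higher and 6.6% lower). The median was 0.18 with 30 genes above 0, where all tested probe sets had a median of -0.01 and 47.8% above 0. Without young rat 1 the median of the genes was -0.05 with 15 above 0. The smallest p were those of Aurka (0.44 ± 0.22, adjusted p = 0.844), whose epididymal signals were 187, 323 and 379 in young and 227, 445 and 485 in old rats, and Ccnb1 (0.38 ± 0.20, 0.844).

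Other genes of the pathway were taken from lists and read against the same background for the depot average (30.2% higher, 21.4% lower). Of 33 tested other genes of replication and S phase (34 on the array), 9 were higher and 2 lower in perirenal cells (median 0.30). Higher were Rfc4, of the clamp loader (1.00 ± 0.12), Prim1, the primase (1.13 ± 0.19), and Pole4, of DNA polymerase epsilon (0.64 ± 0.10). Lower were Orc4, of the origin recognition complex (-0.66 ± 0.11), and Rfc1, the large clamp loader subunit (-0.52 ± 0.18). Of 30 other mitosis genes, 9 were higher and 3 lower (median 0.23). Mad1l1, the partner of MAD2 (1.21), Cdca8, borealin of the passenger complex (0.96), and Cit, citron kinase (0.75), were higher. Lower were Zwint, of the kinetochore (-0.46), and the cohesin subunits Smc1a (-0.47) and Smc3 (-0.36).

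Of 10 tested E2F, MYC and DREAM factors, 2 were higher and 2 lower in perirenal cells (median 0.09). Foxm1, a driver of mitotic genes, had perirenal signals of 458, 474 and 305 and 312, 475 and 299 and epididymal signals of 64.8, 278 and 199 and 162, 205 and 172. The depots did not overlap, and the epididymal array of young rat 1 was again the lowest (1.19 ± 0.29, adjusted p = 0.00395). E2f4, a repressive E2F, was higher (0.56), and Max, the partner of MYC (-0.39), and Tfdp1, the partner of the E2Fs (-0.33), were lower.

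Inhibitors of the cycle and arrest genes went both ways: 7 of 21 were higher and 5 lower (median 0.17). Cdkn1b, the kinase inhibitor p27, had perirenal signals of 977, 961 and 816 (young) and 906, 1009.8 and 1362 (old). In epididymal cells they were 2912, 2571 and 2169 and 2666, 2942 and 2102, all above every perirenal signal (-1.36 ± 0.13, adjusted p = 3.77e-06). Gadd45b, a stress gene (-0.52), and Btg1, an antiproliferative gene (-0.46), were lower as well. Higher were Cdkn2c, the inhibitor p18 (0.86), and the antiproliferative genes Btg3 (0.94) and Tob2 (0.52). With age, 0 genes of these 4 lists passed in either depot, in the interaction or in the average.

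Markers of other cell types that a stromal culture can hold were counted by depot in the same way. Beside them, 30.2% of all tested probe sets were higher and 21.4% lower in perirenal cells. The mesothelial and endothelial lists are too short to set against these shares. Smooth muscle markers were lower in perirenal cells for 9 of 9 that passed the filter, of 10 on the array (signals summed over all markers on the array, here and for the other lists, 15040 to 24241 against 42146 to 63358). Macrophage and leukocyte markers were higher for 5 of 8, of 15 on the array, and the labels state that macrophage markers did not vary by depot or age. Their sums were 1229 to 1998 (young) and 1890 to 3152 (old) in perirenal and 948 to 1624 and 1119 to 1822 in epididymal cells. Mesothelial and epithelial markers were lower for 2 of 4 tested, of 8 on the array (sums 1127 to 1662 against 2338 to 4302), endothelial markers higher for 1 of 2 tested, of 7 on the array (360.1 to 517 against 221 to 412), and fibroblast markers higher for 2 and lower for 7 of 10. The part of these cells in the proliferation values was not tested.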

How the data were processed

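RNA from 12 cultures was measured on 1-colour expression arrays, 3 for each depot and age. The deposited values were intensity values, 1 linear signal per probe set and array, and the submitters' processing notes name MAS5 with no version or settings. Signals were put on the log2 scale as deposited, since the mean of each array without its highest and lowest 2% was 500.1 to 500.2. The 2 signals of 0 were set to 0.1. After removal of the 57 control probe sets and of the lowest 30% by mean log2 signal (geometric mean 56.3), 11106 probe sets remained. Tests used limma (version 3.58.1, R version 4.3.3). The model had 1 term per group on all 12 arrays, a trend of the variance with signal, and p-values adjusted over these probe sets by Benjamini-Hochberg, with a threshold of 0.05. Age averaged over depots used the mean of both arrays of a rat. Errors beside log2 differences are standard errors.

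Gene names came from the platform annotation, with 12783 probe sets of 1 symbol, 312 of several and 2771 of none. The 40 genes, their roles and the other lists were chosen with earlier results of these data known, so no list was tested and no score over the genes has a p-value. Signals on every array are given for up to 8 higher and 4 lower genes of the depot average, the 4 smallest p in each direction with age, the 2 smallest p in the interaction and the age average, and Mki67, Ccnd1, Pcna, Mcm2, Top2a, Cdk1 and Tyms. For other lists, up to 3 genes in each direction are named.

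The sample titles number the arrays of both depots 1 to 3 within each age. Arrays were paired by that number, which was taken to mark the rat. Deviations from the group means correlated at 0.0393 to 0.201 between both arrays of a rat, over 0.1 in 3 of 6 rats. Among all epididymal arrays, each young perirenal array correlated best with that of its own rat, and no old one did. Each old perirenal array correlated best with the young epididymal array of its number (0.235, 0.126 and 0.167 for numbers 1, 2 and 3). Within its age it correlated best with that of its own rat. Alternatives were quantile normalization, no filter, log2(signal + 16), all probe sets of a gene, the rat as a block, the 3′/5′ ratio as a covariate, leaving out the 2 arrays of highest ratio and leaving out each rat. Leaving out the epididymal array of young rat 1, and the label number as a block, were chosen after seeing the data. The scripts were tested on simulated data.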

Additional observations from a re-analysis of the deposited data

How the results depend on the processing

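Depot calls changed most with the beta-actin 3′/5′ ratio as a covariate. The ratio nearly coincides with depot, so that fit has little precision for depot. It left 1 of 40 genes in the average, 1 in young and 0 in old rats, and 274, 412 and 32 of all probe sets (from 5738, 3880 and 3528). The main counts were 21, 13 and 12. Leaving out 1 rat gave 15 to 22 genes in the average, 9 to 13 in young and 1 to 18 in old rats. Without the epididymal array of young rat 1 they were 21, 15 and 19. Pairing the arrays with the rat as a fixed block gave 22, 15 and 15 genes, as a random block 22, 14 and 14, and with the label number as a block 23, 15 and 16; apart from Pcna, which passed with the fixed and the number block, no gene named with its signals changed its call under a block. Quantile normalization gave 22, 14 and 10. It moved the median of all probe sets in the depot average from 0.08 to -0.03 and the share of their calls that were higher from 58.5% to 46.9%, while the genes' own split went from 19 higher and 2 lower to 19 and 3, the lost calls being Fen1 and Bub1b and the gained ones Cdk4, Pcna and, as lower, Smc4. Requiring all probe sets of a gene to pass in 1 direction gave 19, 10 and 11.

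No age or interaction count of the 40 genes left 0 under any alternative run. Of all probe sets, the 8 with age in epididymal cells became 0 after quantile normalization, 5 without the filter, 2 without the 2 arrays of highest ratio, 0 to 5 on leaving out a rat other than old rat 1, and 19 without the epididymal array of young rat 1. Fixed rat blocks could not be fitted for age, since each rat has 1 age, and the random block was not run for rat means. Signs also turned. In the depot average Top2a went from 0.07 to -0.14 without the epididymal array of young rat 1, and to between -0.16 and 0.26 without 1 rat. For age in perirenal cells Mki67 ran from -0.15 to 0.34 without 1 rat. For age in epididymal cells Mcm4 was 0.066 without the 2 arrays of highest ratio. Without the array of young rat 1 that difference changed sign for 22 of 40 genes, 21 of them from above to below 0, among them Mcm5 (0.44 to -0.41), Mcm6 (0.40 to -0.17), Mcm3 (0.31 to -0.24) and Cks1b (0.32 to -0.09). It was -0.22 for Pcna, -0.19 for Mcm2, -0.33 for Top2a, -0.22 for Cdk1 and -0.16 for Tyms. Leaving out 1 rat at a time gave -0.47 to 0.20 for Kif22, -0.34 to 0.15 for Mcm4, -0.22 to 0.33 for Pcna, -0.19 to 0.36 for Mcm2, -0.33 to 0.41 for Top2a, -0.22 to 0.37 for Cdk1 and -0.16 to 0.17 for Tyms. The cause of the other changes was not tested. The mean over the genes' probe sets, all 52 in place of 40 probe sets, was 9.35 in young and 9.46 in old perirenal and 8.90 in old epididymal cells, against 9.59, 9.71 and 9.27. Signal over background limits low genes such as Smc4.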

Other observations

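Of 21 tested genes of cell cycle inhibition and arrest, 0 passed with age in epididymal cells, and their median difference was 0.03 (limma, adjusted over 11106 probe sets). Values follow for Ccng1, Tob1 and Cdkn2a, the 3 higher genes of smallest p in that list. Ccng1, cyclin G1, a p53 target, had signals of 1700.4, 1427 and 1280.0 in young and 2271, 1953 and 2638 in old epididymal cells, without overlap (0.64 ± 0.23 SE, adjusted p = 0.468). Cdkn2a, the locus of the inhibitors p16 and ARF, had 97.4, 64.0 and 88.4 in young and 199.9, 111.8 and 101.3 in old epididymal cells, also without overlap (0.68 ± 0.34, adjusted p = 0.612). Tob1, an antiproliferative gene, overlapped between ages (0.63 ± 0.27, adjusted p = 0.561). The 3 lower genes of smallest p were Gadd45b (-0.32 ± 0.15, adjusted p = 0.597), Phlda3 (-0.46 ± 0.32, 0.729) and Cdkn1c (-0.69 ± 0.59, 0.803). Gadd45b had 656.6, 683.2 and 559.2 in young and 509.9, 556.4 and 450.9 in old epididymal cells, likewise without overlap. Phlda3 and Cdkn1c overlapped. Over all tested probe sets, 4.69% were higher and 5.93% lower in old epididymal cells without overlap. In perirenal cells the age differences were 0.29 for Ccng1, 0.31 for Cdkn2a and 0.34 for Tob1.

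Different rats carry the same label number, 1 to 3, in the young and the old group. Over all tested probe sets, the deviations from the group means of the 12 pairs of arrays with the same number and different rats correlated at 0.141 on average (-0.0208 to 0.303), against 0.107 for the 6 pairs of the same rat and -0.0649 for the 36 pairs of different numbers; probe sets are not independent. For the 40 genes the array numbered 1 had the lowest mean of its group in young and old epididymal and in old perirenal cells (8.39, 8.99 and 9.53), but not in young perirenal cells, where the array numbered 3 did (9.45). What the number stands for beyond the animal it was taken to mark is not given in the sources used here.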
